A study of Mus musculus with 4 samples.

Results

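The genes described here are 10 that mark the macrophages of the splenic red pulp or serve the recycling of iron from red cells: Slc40a1, Hmox1, Vcam1, Cd5l, Spic, C1qa, C1qb, C1qc, Mpeg1 and Cd68. They were chosen by name, and every probe set that the platform annotation pairs with 1 of them alone was taken, which gave 16 of the 45101 probe sets of the array and 10 of the 18193 genes represented on it. The samples were leukemic blasts from mice with a megakaryoblastic (M7) leukemia, sorted for the GFP reporter that the tagging retrovirus carries. The leukemia arose by retroviral insertional mutagenesis of fetal progenitors with the Gata1s mutation, which leaves only a short form of the transcription factor GATA1. Each of 2 mice gave blasts from its peripheral blood and from its spleen, 1 array per tissue and mouse, and all 4 arrays carry the same leukemia designation, T6(6). No treatment was given, the cells were not cultured, and strain and age were not stated in the labels. The spread between replicates is therefore that between 2 animals bearing 1 leukemia.

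Red pulp macrophages clear aged red cells from the blood. They break down the hemoglobin, open the heme ring with heme oxygenase 1 (Hmox1), and return the iron to plasma through ferroportin (Slc40a1), the cellular iron exporter. Their development depends on the transcription factor SpiC (Spic), and they carry the adhesion molecule VCAM1 (Vcam1), which binds integrins of blood cells. CD5L (Cd5l) is a secreted scavenger protein of tissue macrophages. C1qa, C1qb and C1qc encode the chains of C1q, a part of the first component of the classical complement pathway. Mpeg1 encodes perforin-2, a pore-forming protein of phagocytes, and Cd68 encodes a lysosomal glycoprotein of macrophages. Spleen and blood differ in their resident macrophages, so the question here was how far transcripts of these genes were measured in sorted blasts of each site.

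The letters ahead of the start sites are shown for 4 members. C1qb, C1qc and Cd5l were highest in spleen of mouse 1, and Mpeg1 was highest in blood of mouse 2. Cd68 and Spic (by its brightest probe set) were also highest in blood of mouse 2, and their windows are counted below but not shown. RefSeq (GRCm38.p6) held a promoter for 6 of the 10 members, and no entry was held for Slc40a1, Hmox1, Vcam1 and C1qa. Each sequence covers the 250 bases upstream of the start site, 5′ to 3′ on the strand of the gene, and capitals mark the letters GAGGAA, the core bound by PU.1 and its relatives such as SpiC, or TGCTGA, a part of the site bound by Maf factors, on either strand.
Cd5l (chr3:87357631-87357880, plus strand): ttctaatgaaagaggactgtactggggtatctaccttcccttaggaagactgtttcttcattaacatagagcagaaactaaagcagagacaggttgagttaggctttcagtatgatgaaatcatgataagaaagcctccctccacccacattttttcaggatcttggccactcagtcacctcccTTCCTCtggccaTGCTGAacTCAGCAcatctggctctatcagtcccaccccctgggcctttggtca
C1qb (chr4:136886201-136886450, minus strand): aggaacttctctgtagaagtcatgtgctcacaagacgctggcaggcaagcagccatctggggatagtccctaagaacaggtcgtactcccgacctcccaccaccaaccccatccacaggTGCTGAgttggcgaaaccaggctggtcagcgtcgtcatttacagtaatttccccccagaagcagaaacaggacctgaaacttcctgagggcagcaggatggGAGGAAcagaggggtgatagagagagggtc
C1qc (chr4:136892915-136893164, minus strand): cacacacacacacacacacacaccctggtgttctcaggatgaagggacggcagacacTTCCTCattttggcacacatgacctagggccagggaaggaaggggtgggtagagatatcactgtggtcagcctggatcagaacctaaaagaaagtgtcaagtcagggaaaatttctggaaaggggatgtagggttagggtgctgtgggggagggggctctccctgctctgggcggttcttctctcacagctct
Mpeg1 (chr19:12460520-12460769, plus strand): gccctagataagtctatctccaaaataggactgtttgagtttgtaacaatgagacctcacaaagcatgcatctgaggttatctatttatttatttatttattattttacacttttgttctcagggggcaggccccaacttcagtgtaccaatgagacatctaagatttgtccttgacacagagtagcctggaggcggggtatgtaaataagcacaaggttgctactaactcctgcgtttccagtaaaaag
These motifs were picked after the sequences had been seen. GAGGAA lay once in each of the Cd5l, C1qb, C1qc and Cd68 windows and in 23.3% of all 32851 promoter windows of this length. TGCTGA lay in the Cd5l, C1qb and Spic windows and in 16.1% of all windows. In the Cd5l window 2 such runs faced each other as TGCTGANNTCAGCA, which overlaps both, starting 54 bases before the start site. Of all windows 2 (0.00609%) held that full form. Cd5l is itself 1 of them, and the form was picked after its window had been seen, so the low share is no test. Neither GAGGAA nor TGCTGA lay in the Mpeg1 window. In the RefSeq gene order C1qb, C1qc and C1qa follow each other on chromosome 4 with no gene between them. A match is a run of letters in this window and says nothing of binding.

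The arrays measured probe set intensities on a linear scale. Array medians lay between 103.7 and 110.6, values below 0 made up 1.60% to 2.17% of an array, and the ratio of 3' to 5' signal of the actin control lay between 1.20 and 1.26. The cells bore the megakaryocyte genes Pf4, a platelet chemokine, at 8074 ± 534 and Itga2b, a platelet integrin chain, at 4496 ± 353 (SD, n = 4 arrays). Log2 values are log2(intensity + 16) with values below 0 set to 0, which understates the change of dim genes. Each gene is represented by its brightest probe set, and it was tested where its mean log2 value, turned back into an intensity, was at least 106, the median of all probe sets. The members past that filter were 5 (Cd68, Vcam1, Hmox1, Mpeg1 and Slc40a1). On that scale, which lies below the plain mean, Slc40a1 lay just inside it at 111, Spic and C1qb lay just outside at 86.9 and 79.1, and C1qc, Cd5l and C1qa stood at 69.2, 34.1 and 11.9. Levels of different genes are not ranked, because probes differ in brightness.

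**Figure D1:**
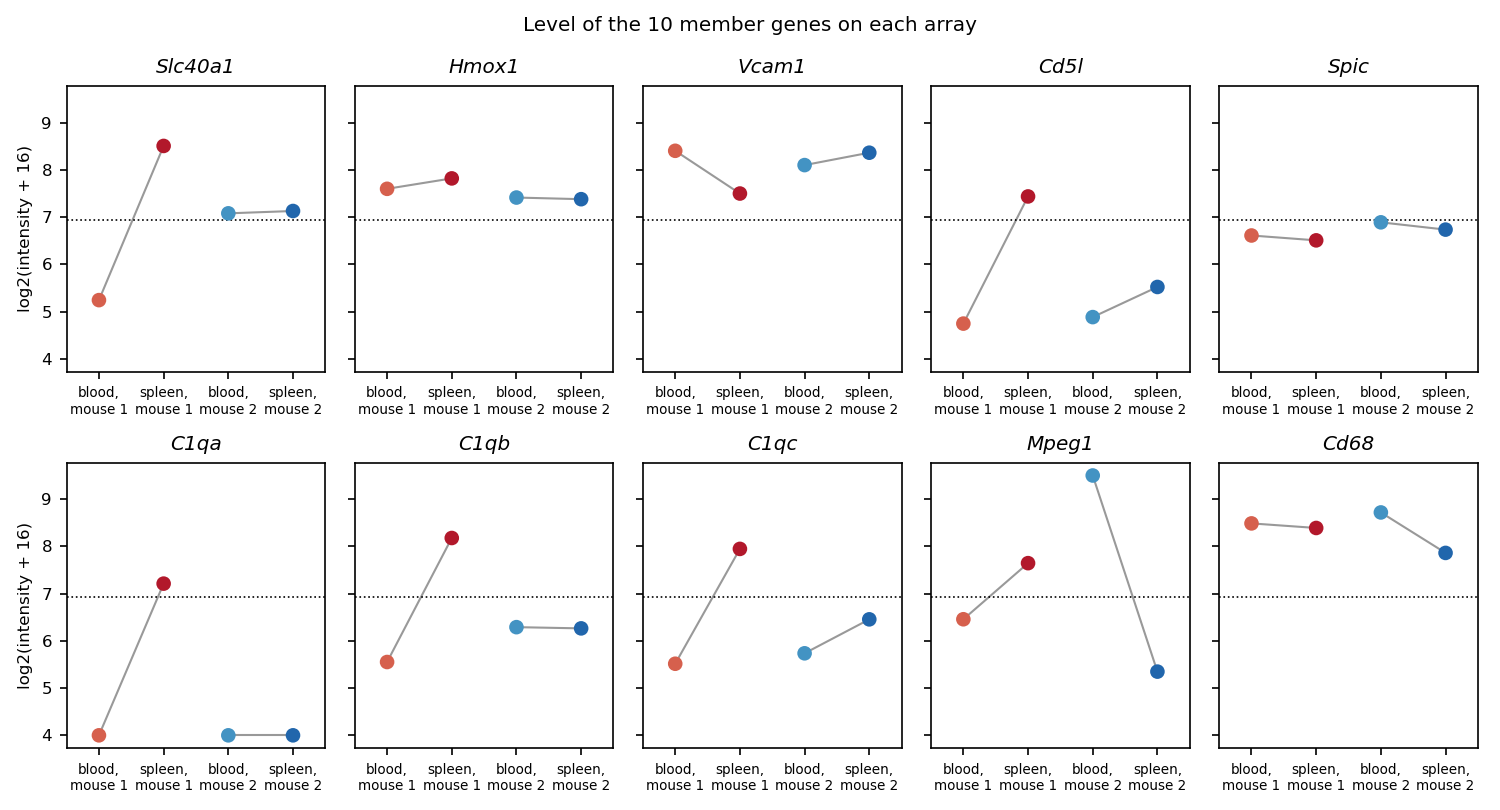
Level of each of the 10 genes on the 4 arrays, as log2(intensity + 16) of its brightest probe set, with grey lines joining blood and spleen of 1 mouse and a dotted line at the filter intensity of 106. Cd5l, C1qa, C1qb, C1qc and Slc40a1 stand highest in spleen of mouse 1, and Mpeg1 stands highest in blood of mouse 2.

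The complement genes and Cd5l shared 1 pattern: they were bright in spleen of mouse 1 and dim on the other 3 arrays. C1qa, the A chain of C1q, stood at 132 in spleen of mouse 1, at -59.6 in blood of mouse 1, at -67.7 in blood of mouse 2 and at -7.95 in spleen of mouse 2. It was thus below 0 on every array but 1, and no fold is given. C1qb, the B chain, had 30.9 and 273 in blood and spleen of mouse 1, against 62.2 and 60.8 in mouse 2. Its signal in spleen of mouse 1 lay 1.89 above the next array on the log2 scale, and blood and spleen of mouse 2 differed by -0.026. Its second probe set had -14.3 and 131 in mouse 1, against 8.03 and 26.6 in mouse 2, where spleen was the higher by 0.83, and the third had -58.6 and 92.5, against -22.3 and -25.6. All 3 were thus highest in spleen of mouse 1, and they differed in mouse 2. C1qc, the C chain, had 29.7 and 231 in mouse 1, against 37.3 and 71.7 in mouse 2, so that spleen exceeded blood in both mice, by 2.43 and by 0.72 on the log2 scale.

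Cd5l, the macrophage scavenger protein, had 10.8 and 157 in blood and spleen of mouse 1, against 13.5 and 29.9 in mouse 2. Spleen was above blood in each mouse, by 2.69 and 0.64 on the log2 scale, and the 3 dimmer values lay between percentile 5.87 and percentile 20.1 of the probe sets of their array, against percentile 59.2 in spleen of mouse 1. The size of these differences rests on the offset: that of Cd5l in mouse 1 was 3.44 with an offset of 4 and 1.56 with an offset of 64, and that of C1qa was 5.09 and 1.62. Over all genes, 0 passed limma with Benjamini-Hochberg adjustment when no brightness filter was used, and at an unadjusted p under 0.05 there were 867 higher (4.77%) and 689 lower (3.79%) in spleen. There Cd5l differed between spleen and blood by 1.66 ± 0.65 (SE, 2 arrays per tissue, adjusted p = 0.574), C1qc by 1.58 ± 0.51 (adjusted p = 0.565), C1qb by 1.30 ± 0.69 (adjusted p = 0.632) and C1qa by 1.61 ± 1.07 (adjusted p = 0.679). Without spleen of mouse 1 these values were 0.71 for Cd5l, 0.83 for C1qc, 0.34 for C1qb and 0 for C1qa.

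Of the iron recycling genes, Slc40a1 differed widely between the tissues of mouse 1 and Hmox1 differed little on any array. Slc40a1, the iron exporter, had 21.9 and 348 in blood and spleen of mouse 1, against 119 and 124 in mouse 2. Blood of mouse 1 was the dimmest array and spleen of mouse 1 the brightest, with both arrays of mouse 2 between them and close together. Its spleen minus blood difference in mouse 1 was 3.26 on the log2 scale and ranked 3 among all 18193 genes. The blood value lay at percentile 12.6 of its array. Slc40a1 passed the filter only through its bright value in spleen of mouse 1, so its test draws on the value that let it in. In mouse 2 the difference was 0.05. Both spleen arrays lay above both blood arrays, as for 27.5% of tested genes, and the fitted difference was 1.66 ± 0.67 (SE, 2 arrays per tissue; limma, unadjusted p = 0.047, adjusted p = 0.396). It was 0.97 without spleen of mouse 1 and 0.74 without blood of mouse 1, so each of these arrays carried a large share of it. The second Slc40a1 probe set was dimmer and kept the same order of arrays, with 29.4 and 113 in mouse 1, against 66.2 and 67.8 in mouse 2.

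Hmox1, heme oxygenase 1, had 178 and 210 in blood and spleen of mouse 1, against 155 and 150 in mouse 2. All 4 arrays lay within 0.44 of each other on the log2 scale, and the tissues overlapped. The fitted difference was 0.09 ± 0.17 (SE, 2 arrays per tissue; limma, adjusted p = 0.860), and it was -0.13 without spleen of mouse 1.

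The probe sets of Vcam1 disagreed. The brightest had 323 and 165 in blood and spleen of mouse 1, against 259 and 313 in mouse 2, with its lowest value in spleen of mouse 1. Its fitted difference was -0.32 ± 0.28 (SE, 2 arrays per tissue; limma, adjusted p = 0.675). The dimmest of the 3 had -12.3 and 216 in mouse 1, against 1.82 and 17.4 in mouse 2, and the second had 24.6 and 97.5 in mouse 1, against 28.9 and 47.3 in mouse 2. Both were highest in spleen of mouse 1, with spleen above blood in each mouse, by 3.86 and 0.91 and by 1.48 and 0.50 on the log2 scale. With the mean of all 3 probe sets the difference of Vcam1 was 1.02 (limma, adjusted p = 0.307), which turns its direction. The direction of Vcam1 therefore depends on the probe set. The dimmest has the pattern of Cd5l and the complement genes. The second peaked on the same array, but at 97.5 it lay below the filter there. Its lead over the next array was 0.84 on the log2 scale.

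Spic, the transcription factor of red pulp macrophages, was dim on every array. Its main probe set had 81.7 and 75.0 in blood and spleen of mouse 1, against 103 and 90.5 in mouse 2, none of which reached the filter of 106. The other had 0.17 and 21.9 in mouse 1, against 8.35 and 13.4 in mouse 2, so that its highest array was again spleen of mouse 1, at percentile 12.7 of that array. Fitted with no filter, the main probe set differed by -0.13 ± 0.16 (SE, 2 arrays per tissue; limma, adjusted p = 0.828). At these intensities the arrays do not show whether Spic was expressed.

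**Figure D2:**
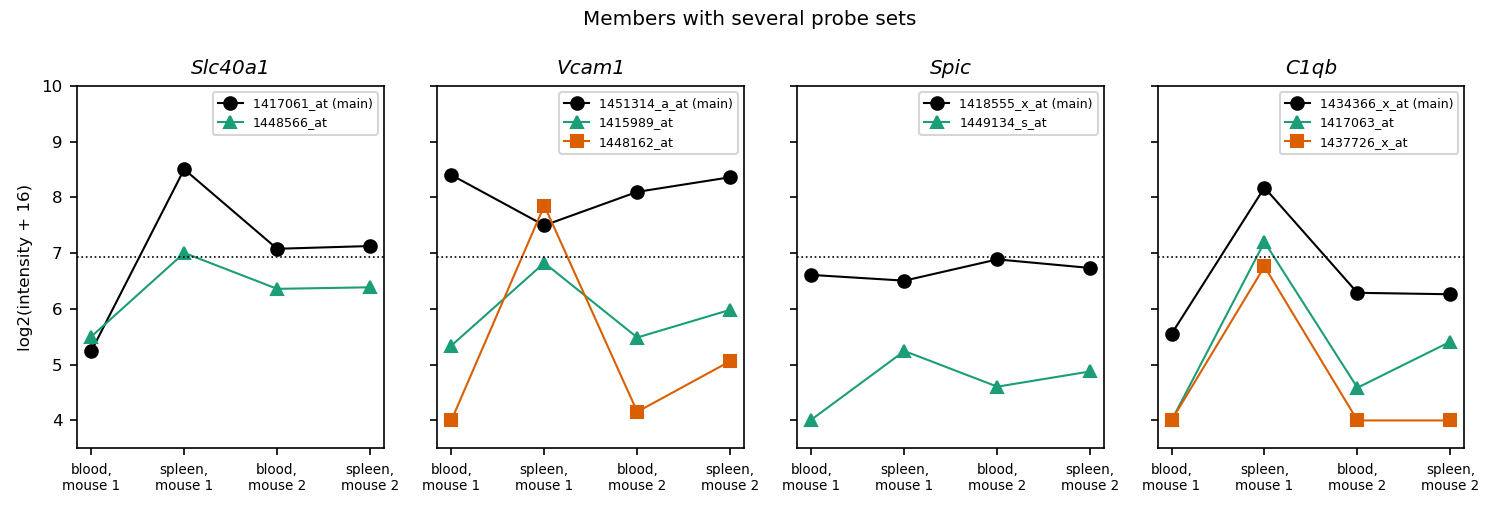
The 4 members with more than 1 probe set, as log2(intensity + 16) on each array, 1 line per probe set (lines only guide the eye) and a dotted line at the filter intensity of 106. All probe sets of Slc40a1 and C1qb peak in spleen of mouse 1, whereas the brightest Vcam1 probe set has its lowest value there and the other 2 their highest.

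The phagocyte genes Mpeg1 and Cd68 had another pattern, high in blood of mouse 2 and low in spleen of mouse 2. Mpeg1, the pore-forming protein perforin-2, had 71.8 and 184 in blood and spleen of mouse 1, against 708 and 24.7 in mouse 2. Spleen was above blood by 1.19 in mouse 1 and below it by 4.15 in mouse 2 on the log2 scale. This difference of -4.15 was the 10th lowest of all 18193 genes. Mpeg1 passed the filter only through its bright value in blood of mouse 2, so its test draws on the value that let it in. The tissues overlapped, and the fitted difference of -1.48 ± 1.10 (SE, 2 arrays per tissue, limma, adjusted p = 0.613) lies between those of the mice. Without blood of mouse 2 it was 0.0396. Cd68, the lysosomal glycoprotein, had 343 and 319 in mouse 1, against 405 and 217 in mouse 2. Both spleen arrays lay below both blood arrays, as for 17.6% of tested genes. The differences were -0.10 in mouse 1 and -0.86 in mouse 2, with a fitted value of -0.48 ± 0.20 (SE, 2 arrays per tissue; limma, unadjusted p = 0.052, adjusted p = 0.410). Without spleen of mouse 2 it was -0.21.

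Of the 5 members past the filter, 0 passed limma with adjustment over all 11614 tested genes, of which 0.0% passed, and the smallest adjusted p of any gene was 0.140. At an unadjusted p under 0.05, 1443 genes stood, with 8.12% of tested genes higher and 4.31% lower in spleen, and Slc40a1 was the 1 member among them. With the mouse as a block (the pairing the labels give) its unadjusted p by limma was 0.0839, and with no brightness filter it was 0.0903, where C1qc stood at 0.0318. In mouse 1 spleen was at least 2-fold above blood for 6 of the 10 members (Slc40a1, Cd5l, C1qa, C1qb, C1qc and Mpeg1), against 0.654% of all 18193 genes. In mouse 2 this held for 0 of 10, against 0.967%, and Mpeg1 alone was at least 2-fold lower, against 2.2%. Spleen was at least 2-fold above blood in both mice for 0 of 10 members, against 0.0879% of all genes. Spleen exceeded blood in both mice for 3 members (Slc40a1, Cd5l and C1qc), against 32.9% of all genes, and was below it for 2 (Spic and Cd68), against 26.7%. The count of members higher in both mice was 6 with centred arrays, with quantile normalization and with the mean of all probe sets. No share of all genes is given for these settings, so these counts have nothing to be read against. In the main setting Hmox1, C1qb and C1qa differed by -0.035, -0.026 and 0 in mouse 2. With centred arrays or quantile normalization a small shift between arrays can therefore move them above 0. C1qa lay below 0 on both arrays of mouse 2, so only such a shift can move it. The mean of all probe sets shifts no array and instead moves C1qb, Vcam1 and Spic, whose probe sets differ. The median difference of the 10 members was 1.81 in mouse 1 and -0.01 in mouse 2, and that of all genes was 0.04 and -0.01. It rests on dim members, whose differences depend on the offset: for the 5 past the filter the medians were 0.22 and -0.035. Of these 5, Slc40a1 and Mpeg1 passed the filter only through their brightest array. The differences of at least 2-fold upward thus all lay in mouse 1; whether the mice differ was not tested.

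**Figure D3:**
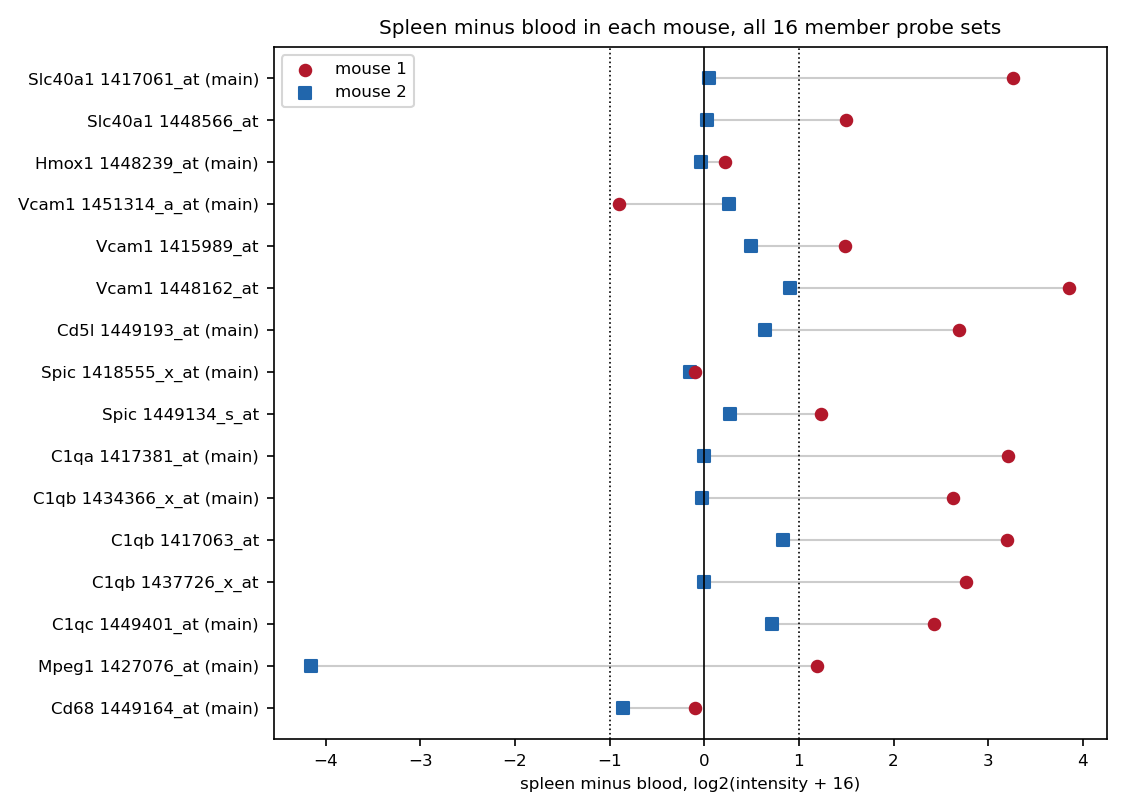
Spleen minus blood within each mouse for all 16 probe sets of the members, on the log2(intensity + 16) scale, with red circles for mouse 1, blue squares for mouse 2 and dotted lines at a 2-fold difference. In mouse 1, 12 probe sets lie above 2-fold, and in mouse 2 none does, with Mpeg1 at -4.15.

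By probe set, spleen of mouse 1 was the highest array for 12 of 16, against 31.2% of the 34945 probe sets with 1 gene. In mouse 1 spleen was at least 2-fold above blood for 12 of 16, against 0.655%, and in mouse 2 for 0 of 16, against 1.16%. It lay at least 2-fold above each of the other 3 arrays for 8 of 16, against 0.1%, and for 5 of the 10 genes (C1qa, Cd5l, C1qb, C1qc and Slc40a1), against 0.11% of all genes. This array was singled out after its values had been seen, so these counts are a description with no test. The 4 of them other than Slc40a1 were dim on the other 3 arrays, so that the size of their lead depends on the offset. Among genes that are no members and reached the filter there, Apoe, Prg2, Kirrel3, Ighv14-2, Rap1gapos, Otx1 and Ctsq also lay at least 2-fold above the rest. Apoe and Prg2 had the largest leads of these. Apoe, an apolipoprotein made by macrophages, had -24.2 and 284 in blood and spleen of mouse 1, against 37.8 and 11.2 in mouse 2. Prg2, a granule protein of eosinophils, had 270 and 1394 in mouse 1, against 142 and 232 in mouse 2. In bulk RNA, fewer cells of a type and less RNA per cell cannot be told apart.

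Between the mice, with 1 animal per side and no test, Slc40a1, Cd5l, C1qb, C1qc, Mpeg1, Vcam1 and Cd68 differed in opposite directions in blood and spleen. In spleen mouse 2 was below mouse 1 by 1.92 for Cd5l (a difference of -1.92), by 1.91 for C1qb (-1.91), by 1.49 for C1qc (-1.49) and by 1.38 for Slc40a1 (-1.38) on the log2 scale. In blood mouse 2 was above mouse 1 by 1.84 for Slc40a1, by 0.74 for C1qb, by 0.22 for C1qc and by 0.14 for Cd5l, while C1qa was below 0 in both and in spleen of mouse 2. Mpeg1 was 3.04 higher in mouse 2 in blood and differed by -2.30 in spleen. Vcam1 (brightest probe set) differed by -0.30 in blood and 0.86 in spleen, and Cd68 by 0.23 and -0.53. Spic was higher in mouse 2 in both tissues, by 0.28 and 0.23, and Hmox1 lower, with differences of -0.18 and -0.44. The members gave no common order of the mice.

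The genes with the most similar profiles were sought by the Euclidean distance between log2 values over the 4 arrays, each centred on its own mean. With 4 points per profile such likeness is a description. Among 11609 tested genes that are no members, the nearest to Mpeg1 were Ctss, a lysosomal protease of phagocytes, at 0.47 and Fcgr4, a receptor for IgG, at 0.57. Ctss had 319 and 522 in blood and spleen of mouse 1, against 1870 and 88.2 in mouse 2, and Fcgr4 had 118 and 239 in mouse 1, against 1233 and 73.7 in mouse 2, so both shared the peak in blood of mouse 2. For Slc40a1 the nearest were 1700028I16Rik at 1.30 and Zfp3 at 1.33, which is far by comparison. The nearest to Hmox1 were Washc4 and Rnf125, to Vcam1 (brightest probe set) Neurog3 and Xpnpep2, and to Cd68 Ccm2l and Malt1, at distances from 0.01 to 0.15; profiles that span little find close neighbours easily.

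Among other genes of iron and heme handling no difference between spleen and blood passed the test. Of 27 listed genes, 25 were measured and 18 tested; 0 passed. In both mice 11 of the 18 were higher in spleen and 3 lower, against 38.5% and 25.1% of tested genes. Their median difference was 0.10, beside 0.03 over all tested genes. None of the 25 lay at least 2-fold above the other arrays in spleen of mouse 1. Leading in their difference were Flvcr1, a heme exporter, with 199 and 273 in blood and spleen of mouse 1, against 202 and 248 in mouse 2 (limma, adjusted p = 0.343), and Tfrc, the transferrin receptor, with 3290 and 2741 in mouse 1, against 3205 and 2426 in mouse 2 (limma, adjusted p = 0.365). Hp, haptoglobin, which binds free hemoglobin, had 59.0 and 30.2 in mouse 1, against 234 and -12.2 in mouse 2, with its peak in blood of mouse 2 like that of Mpeg1. Cd163, the macrophage receptor for the complex of hemoglobin and haptoglobin, lay between 18.6 and 23.8 on all arrays.

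The heme and oxidant response, in which BACH1 represses and NRF2 activates genes such as Hmox1, had 12 tested genes with a median difference of 0.05, 0 of which passed. Nfe2l2, the gene of NRF2, had 1251 and 1652 in blood and spleen of mouse 1, against 1191 and 1483 in mouse 2 (limma, adjusted p = 0.348), and Me1, malic enzyme, had 353 and 438 in mouse 1, against 353 and 494 in mouse 2 (limma, adjusted p = 0.323). With the mean of its probe sets Nfe2l2 differed by -0.28.

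Of the other complement components and receptors 9 were tested and 0 passed, with a median of -0.12. C3ar1, the receptor for the C3a fragment, had 140 and 123 in mouse 1, against 155 and 90.2 in mouse 2 (limma, adjusted p = 0.373), and Itgax, a chain of complement receptor 4, had 176 and 165 in mouse 1, against 191 and 171 in mouse 2 (limma, adjusted p = 0.715). The partners of VCAM1 and related ligands, 7 tested, had a median of 0.07 and 0 passed. Among them Itgb7, an integrin chain that pairs with the VCAM1-binding alpha 4 chain, had 592 and 437 in mouse 1, against 738 and 470 in mouse 2 (limma, adjusted p = 0.289), and Itga9, another chain that binds VCAM1, had 1095 and 1479 in mouse 1, against 1095 and 1315 in mouse 2 (limma, adjusted p = 0.350).

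Macrophage transcription factors, 10 tested, had a median of 0.05 in mouse 1 and of -0.51 in mouse 2, and 0 passed. Spi1, which encodes PU.1, the relative of SpiC, had 1331 and 1043 in blood and spleen of mouse 1, against 1578 and 939 in mouse 2 (limma, unadjusted p = 0.0071, adjusted p = 0.255). Tfec, a factor of the MITF family, had 348 and 485 in mouse 1, against 283 and 392 in mouse 2 (limma, adjusted p = 0.359). Lysosome and scavenger genes, 10 tested, had a median of 0.05 and 0 passed. Lamp1, a membrane protein of lysosomes, had 3668 and 4279 in mouse 1, against 3803 and 4249 in mouse 2 (limma, adjusted p = 0.527). Scarb2, a lysosomal receptor, had 763 and 861 in mouse 1, against 735 and 994 in mouse 2 (limma, adjusted p = 0.410). In each gene both spleen values lay above both blood values, as for 27.5% of tested genes. With the mean of its probe sets the difference of Scarb2 was 0.09, beside 0.30 for its brightest.

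Most of the other markers of tissue macrophages were highest in blood of mouse 2, as Mpeg1 was. Of 19 measured, 12 were highest in blood of mouse 2, against 27.6% of all genes, and 5 in spleen of mouse 1, against 29.7%, and 1, Apoe, lay at least 2-fold above the rest in spleen of mouse 1. Their summed intensity was 5572 and 10545 in blood of mouse 1 and 2 and 6129 and 4504 in spleen, and Apoe was the 1 marker of the list with a value below 0. Csf1r, the receptor for the macrophage growth factor CSF1, had 270 and 387 in blood and spleen of mouse 1, against 1326 and 110 in mouse 2. The markers highest in spleen of mouse 1 were Apoe, Mrc1, Mertk, Axl and Pltp, of which all but Apoe lay below the filter on all arrays. Mrc1 had 37.9 and 104 in mouse 1, against 28.1 and 47.4 in mouse 2. Timd4, Vsig4 and Clec4f, markers of resident macrophages, also lay below the filter on all arrays and peaked in blood. Marco, a scavenger receptor, lay between 152 and 188 and Siglec1, a sialic acid receptor, between 170 and 206. Lgals3, galectin 3, had 1495 and 1252 in mouse 1, against 2072 and 882 in mouse 2 (limma, adjusted p = 0.317), and Trem2, a lipid receptor of macrophages, had 904 and 780 in mouse 1, against 848 and 744 in mouse 2 (limma, adjusted p = 0.527).

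The summed markers of neutrophils, monocytes, dendritic cells and T and NK cells were highest in blood of mouse 2, the array on which Mpeg1 and Cd68 stood highest. The summed intensity of 10 neutrophil markers was 6886 and 17238 in blood of mouse 1 and 2 and 4176 and 1188 in spleen, with 9 of 10 highest in blood of mouse 2. That of 10 monocyte markers was 4716 and 6042 in blood and 4197 and 3420 in spleen, with 7 of 10 highest in blood of mouse 2. Fcgr3, a receptor for IgG, had 88.6 and 166 in blood and spleen of mouse 1, against 235 and 6.36 in mouse 2, Csf2ra, the GM-CSF receptor chain, had 1446 and 1051 in mouse 1, against 1613 and 829 in mouse 2, and F13a1, a coagulation factor chain, had 108 and 192 in mouse 1, against 179 and 254 in mouse 2. None of the neutrophil or monocyte markers was highest in spleen of mouse 1, the array on which C1qa, C1qb, C1qc, Cd5l and Slc40a1 peaked. The sums of MHC class II and dendritic cell markers (2644 and 5207 in blood, 3210 and 2500 in spleen) and of T and NK cell markers (7291 and 10394 in blood, 8716 and 5348 in spleen) also peaked in blood of mouse 2. The B cell sum was 690 and 612 in blood and 834 and 697 in spleen, and the mast cell sum was 1130 and 940 in blood and 1170 and 837 in spleen. The endothelium and stroma sum lay between 1212 in spleen of mouse 1 and 1391 in blood of mouse 2. The erythroid sum lay between 6106 and 6643, and the megakaryocyte sum was 17880 and 17995 in blood and 20870 and 22555 in spleen. The part of RNA from other cells in the levels of the members was not tested.

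**Figure D4:**
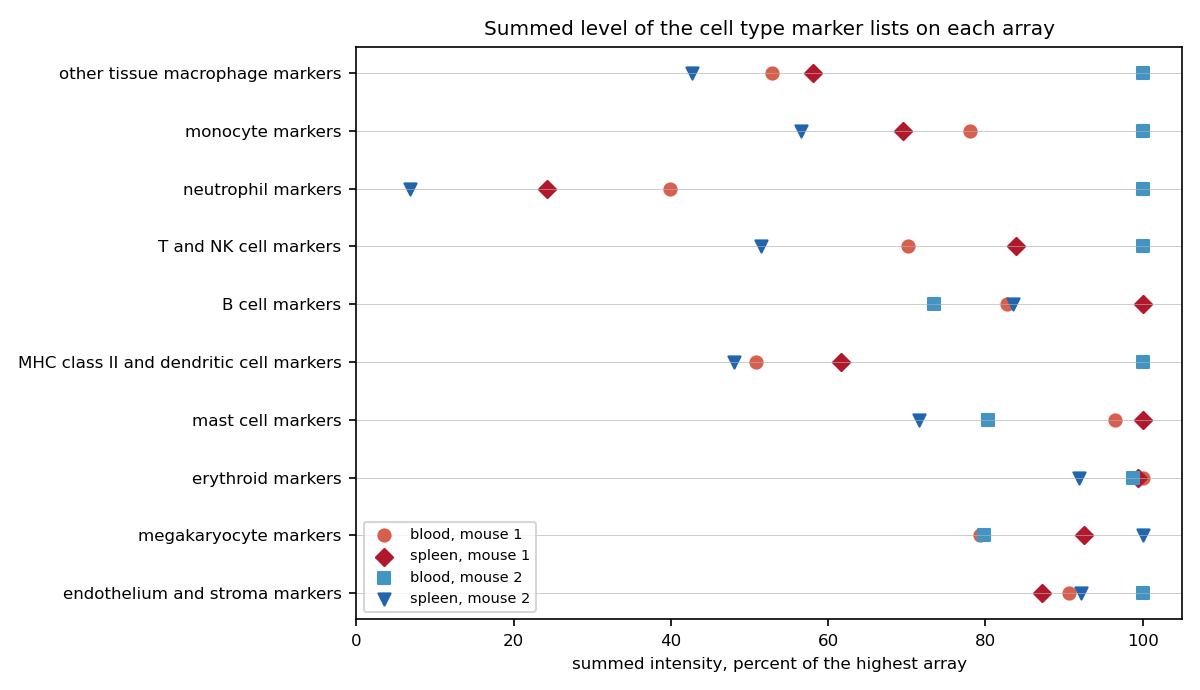
Summed intensity of each cell type marker list on the 4 arrays (values below 0 counted as 0), as a percent of the array on which that list was highest, so that each row has 1 array at 100%. Blood of mouse 2 is the highest array for macrophage, monocyte, neutrophil, T and NK cell and MHC class II markers, with spleen of mouse 2 the lowest, at 6.89% for neutrophil markers. It is also the highest for endothelium and stroma markers, with spleen of mouse 1 the lowest at 87.2%.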

How the data were processed

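The file deposited by the authors holds 1 linear intensity per probe set and array and includes values below 0; the background correction, summary method and scaling are not stated in the sources used here. Per the labels' protocols, total RNA was extracted with Trizol, cleaned on columns and labelled as biotinylated cRNA. The deposited scaling was kept. Symbols were updated through Entrez identifiers with a RefSeq gene table (GRCm38.p6), which held 34741 of 34945 one-gene probe sets. Tissues were compared by limma 3.58.1 in R 4.3.3 (lmFit and eBayes, two-sided, tissue as sole term, Benjamini-Hochberg threshold 0.05). The fit was also run on simulated data with independent normal noise and no mouse effect. That run does not show how it behaves on arrays paired by mouse or on values set to 0. Mouse number pairs the arrays, as the labels name 1 animal for each pair. Members below the filter were fitted over all 18193 genes. Members, lists and rules were chosen with earlier results of these data known. The named genes were all members, the leading 2 tested genes of each supporting list by their smaller same-sign within-mouse difference, list genes spanning over 8-fold (on the log2 scale with its offset) with an array at the filter, and the 2 nearest profiles of each tested member. Of the marker lists, those of macrophages and monocytes are named. Prg2, Kirrel3, Ighv14-2, Rap1gapos, Otx1, Ctsq, Cd163, Timd4, Vsig4, Clec4f, Marco, Siglec1, Mrc1, Mertk, Axl and Pltp were named after their values were seen. Alternatives were other offsets, scalings, filters, probe set rules, a mouse block, a prior with an intensity trend and leaving out each array. The 4 arrays limit the precision of every value. The p-values set a difference against the spread between the 2 animals within each tissue, which limma draws toward a spread common to all fitted genes. They do not reach beyond these 2 animals.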

Additional observations from a re-analysis of the deposited data

Results flagged for a closer look

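Spleen and blood differed in opposite directions in the mice for Mpeg1: the difference of mouse 2 less that of mouse 1 was -5.34 on the log2 scale, from 1.19 in mouse 1 and -4.15 in mouse 2. The difference was not tested, because a tissue of a mouse has 1 array. In mouse 2 the neutrophil markers summed to 17238 (blood) and 1188 (spleen), and their part in it was not tested.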

How the results depend on the processing

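No member was called under any alternative run, with adjusted p from 0.187 (Cd68) to 1 (C1qa). The count of called genes was 0 except for 45 with an intensity trend in the prior and 20 without spleen replicate 1, so leaving out 1 array gave 0 to 20. The mouse block (pairing) gave 0 called genes and changed no call of a member. Members higher in spleen in both mice numbered 3, and 6 with centred arrays, with quantile normalization and with the mean of all probe sets. Members lower in both numbered 2, and 1 with that mean. The share of all genes is not given for these alternatives. Directions turned with the probe set for Vcam1 (1.02 with the mean of its probe sets, 0.99 and 2.38 with its others), Spic (0.31 with the mean, 0.75 with its other) and Nfe2l2 (-0.28 with the mean). Leaving out each array in turn, differences ranged from -0.13 to 0.31 for Hmox1, from -0.75 to 0.11 for Vcam1, from -0.268 to 0.0107 for Spic, from -3.00 to 0.0396 for Mpeg1, from -3.05 to 0.17 for Fcgr4, from -0.11 to 3.36 for Apoe and from -2.86 to 0.17 for Fcgr3; the cause was not tested. Values near 0 depend on the offset, and dim signal limits what is shown for Spic and C1qa. The other probe sets and the counts by array were chosen after seeing the data.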
